A study of Mus musculus with 12 samples.

Results

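NRF2 and its cytosolic repressor KEAP1, together with 6 genes that NRF2 is known to regulate, were followed across 12 mouse lung libraries. The 6 are genes of the quinone, epoxide and thioredoxin systems and the growth inhibitor Osgin1. The 8 genes, Nfe2l2, Keap1, Nqo1, Txnrd1, Txn1, Srxn1, Osgin1 and Ephx1, were taken by symbol from a table of 20793 genes, and all 8 were measured well enough to be tested. Whole lungs of C57BL/6J mice, an inbred laboratory strain, formed 4 groups of 3 libraries: a 60% fat diet with more than 95% oxygen, a 10% fat diet with more than 95% oxygen, and each diet with room air. The diets lasted 12 weeks. The series title names obesity from diet and injury of the lung by high oxygen. Whether diet or exposure came first is worded unclearly, and how long the exposure lasted is not stated. No genotype other than the strain, and no age, is given.

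Values are RPKM, read counts scaled to gene length and to library size, as the authors deposited them; they can be compared between genes because they are per length. A rough depth of 20.8 to 29.4 M reads per library was read from the steps between the lowest values of long transcripts. Across genes, libraries within a group correlated at Pearson's r of 0.980 to 0.995. No label ties a library to an animal, so the p-values reflect variation among libraries that could be technical. In whole lung, fewer cells of a type and less RNA per cell cannot be told apart. Scgb1a1, the main product of club cells, held 17.4% to 24.6% of summed RPKM in room air and 2.68% to 4.63% under oxygen, so that the remaining genes shared a larger part of the total under oxygen. That total was itself not fixed: it ran from 587187 to 731004 in room air and from 538746 to 550738 under oxygen. The median log2 change of the tested genes with oxygen was -0.09 on 60% fat and -0.08 on 10% fat.

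As background, NRF2, encoded by Nfe2l2, is a transcription factor that KEAP1 holds in the cytosol and passes on for degradation. Electrophiles and oxidants modify cysteines of KEAP1, NRF2 then escapes, enters the nucleus, pairs with a small MAF protein and binds antioxidant response elements near its target genes. Much of this control acts on the NRF2 protein, which was not measured here. Thioredoxin, encoded in mouse by Txn1, reduces disulfides in other proteins, and the thioredoxin reductase encoded by Txnrd1 recharges it with NADPH. Sulfiredoxin, encoded by Srxn1, restores peroxiredoxins that have been overoxidized. In mouse lung, Nfe2l2 is known as a gene whose loss worsens injury by high oxygen.

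The RefSeq promoter sequences (build GRCm38.p6, 250 bases before to 50 after a start) of the 4 genes with the largest rise under oxygen are shown 5′ to 3′ on the gene's strand. Capitals mark matches to TGACNNNGC or TGAGNNNGC on either strand, short forms of the antioxidant response element. They lie at chr2:152105274-152105573 (Srxn1, plus strand), chr10:82858956-82859255 (Txnrd1, plus strand, 1 of its 3 listed starts), chr8:119436897-119437196 (Osgin1, plus strand) and chr8:107403156-107403455 (Nqo1, minus strand).
Srxn1: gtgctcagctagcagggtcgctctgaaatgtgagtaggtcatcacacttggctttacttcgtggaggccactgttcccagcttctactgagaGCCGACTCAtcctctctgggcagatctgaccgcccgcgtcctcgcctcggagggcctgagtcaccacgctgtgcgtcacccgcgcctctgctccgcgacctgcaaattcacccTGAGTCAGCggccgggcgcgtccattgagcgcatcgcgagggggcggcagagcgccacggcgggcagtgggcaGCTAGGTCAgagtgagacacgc
Txnrd1: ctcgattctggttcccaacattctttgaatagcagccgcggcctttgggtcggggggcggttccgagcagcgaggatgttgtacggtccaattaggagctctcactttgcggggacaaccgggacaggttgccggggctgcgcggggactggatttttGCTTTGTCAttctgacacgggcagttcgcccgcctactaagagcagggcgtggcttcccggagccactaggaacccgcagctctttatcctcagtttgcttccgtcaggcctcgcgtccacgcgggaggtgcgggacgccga
Osgin1: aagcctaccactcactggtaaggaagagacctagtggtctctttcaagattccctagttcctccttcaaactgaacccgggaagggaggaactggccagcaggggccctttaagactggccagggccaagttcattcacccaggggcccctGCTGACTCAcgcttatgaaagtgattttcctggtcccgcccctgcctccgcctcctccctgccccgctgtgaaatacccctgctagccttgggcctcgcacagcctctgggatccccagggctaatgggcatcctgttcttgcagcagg
Nqo1: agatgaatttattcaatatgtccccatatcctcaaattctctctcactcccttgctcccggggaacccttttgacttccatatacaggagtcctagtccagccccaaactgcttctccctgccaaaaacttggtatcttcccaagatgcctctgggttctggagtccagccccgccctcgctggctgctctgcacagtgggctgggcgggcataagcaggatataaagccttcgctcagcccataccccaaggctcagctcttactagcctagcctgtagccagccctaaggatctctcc

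Srxn1 held 3 matches, beginning 158 and 45 bases before the start and 28 bases after it. Osgin1 held 1, beginning 99 bases before the start, and Txnrd1 held 1, beginning 92 bases before the start shown. The windows of the other listed Txnrd1 starts, not shown, held no match. Of the other members, Nfe2l2 held 1 match, 240 bases before its start. The windows of Nqo1, Keap1, Txn1 and Ephx1 held none of these letters. Of all 6 matches, 2 also contain TGACTCA or its reverse complement, the AP-1 motif: the one 45 bases before the Srxn1 start and the one of Osgin1. Of 32851 promoters of this length, 12.4% held TGACNNNGC, 17.6% held TGAGNNNGC and 27.8% held either, so a match is common and describes the letters alone.

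The first question was what oxygen changed in each diet. On the 60% fat diet, 7 of the 8 genes were higher under oxygen and 1, Nfe2l2 itself, was lower at an adjusted p under 0.05, while 26.3% of all 13324 genes tested were called higher and 36.5% lower. Libraries of the 2 exposures did not overlap for 8 of the 8 genes, against 66.5% of all genes. On the 10% fat diet, 5 were called higher and 1 lower, against 25.3% and 34.2% of all genes, and 6 of the 8 did not overlap, against 67.5%. Srxn1, Txnrd1, Nqo1 and Osgin1 rose between 4.37-fold and 11.3-fold, whereas Ephx1 rose 1.47-fold and 1.68-fold. The oxygen comparisons of the 2 diets share no library but are not independent. Their variances come from a single fit of all libraries. Libraries of the 2 diets with the same replicate number also deviated together within an exposure. All changes are on the log2(RPKM + 0.5) scale and come from limma, with Benjamini-Hochberg adjustment over all genes tested.

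**Figure D1:**
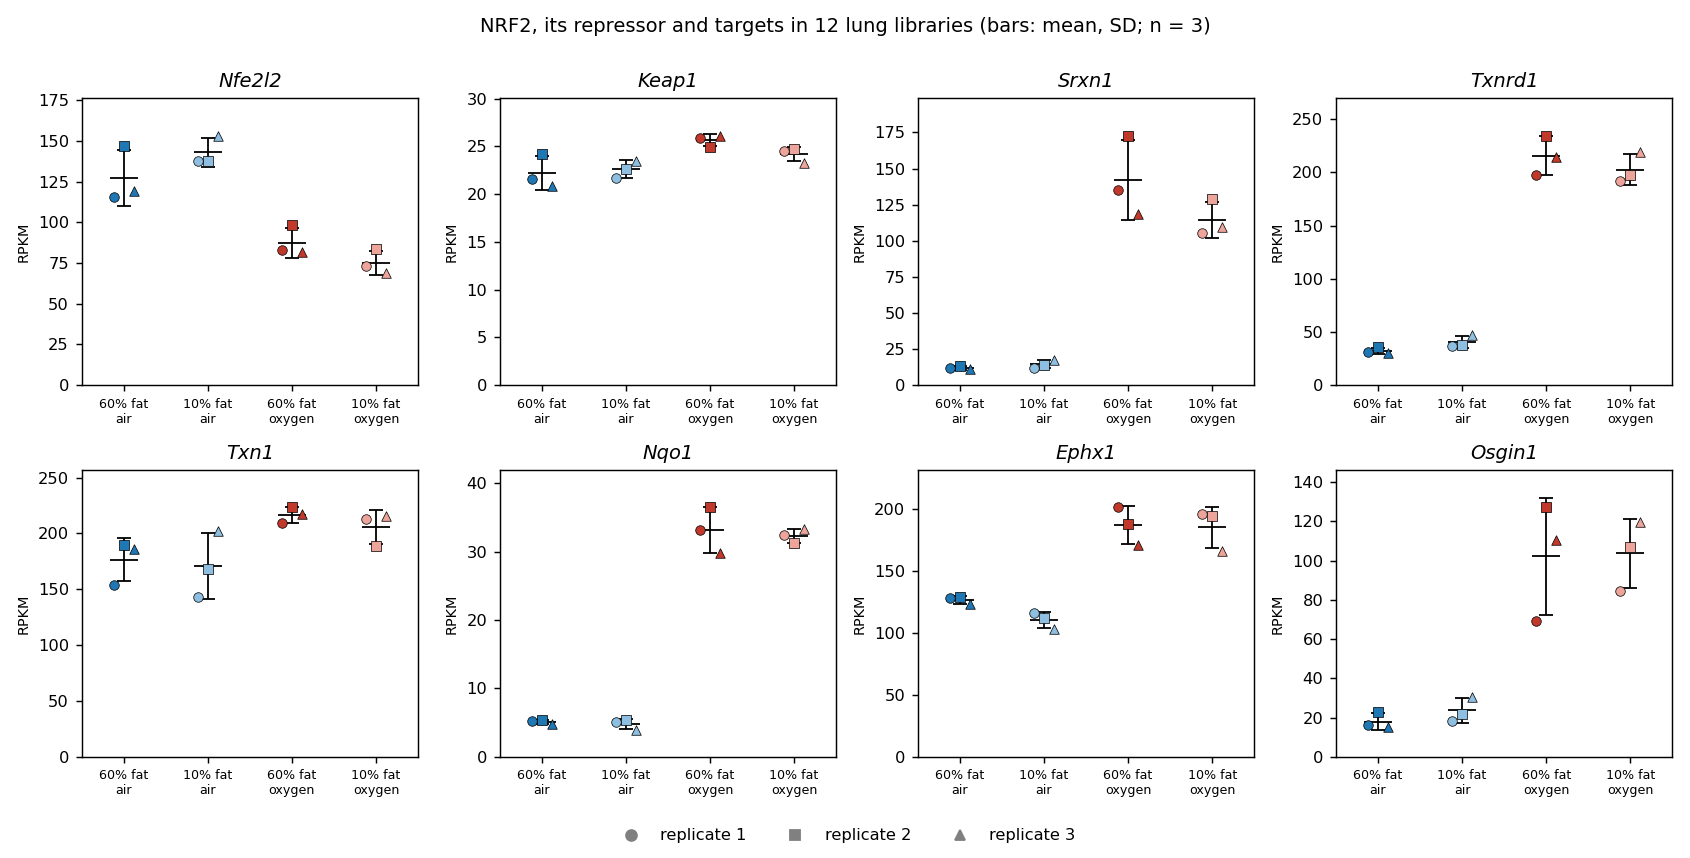
RPKM of the 8 genes in each of the 12 libraries (points), with the mean and SD of each group of 3 (bars); every axis starts at 0 and has its own range. The oxygen libraries of Nqo1, Txnrd1, Srxn1 and Osgin1 lie far above those in room air, those of Nfe2l2 lie below, and those of Keap1 and Txn1 lie close to room air.

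Among the regulators, Nfe2l2 (chromosome 2, 75513575 to 75542698; all positions are from the deposited table, whose build is either mm8 or mm9) was abundant in every group. On 60% fat its RPKM was 115, 147 and 119 in room air and 82.8, 98.1 and 81.5 under oxygen. For 10% fat the values were 137, 138 and 153 in room air and 73.2, 83.3 and 69.0 under oxygen. All 6 oxygen libraries thus lay below all 6 in room air. The group means were 127 ± 17.3 and 143 ± 8.97 RPKM in room air (SD, n = 3) and 87.5 ± 9.26 and 75.2 ± 7.36 under oxygen, for 60% and 10% fat. The log2 change with oxygen was -0.53 ± 0.11 (SE) on 60% fat (limma, adjusted p = 0.00107) and -0.92 ± 0.11 on 10% fat (limma, adjusted p = 1.91e-05). GENCODE M21 lists a small nuclear RNA gene, Gm24996, over Nfe2l2 on the same strand, and how its reads were counted is not known.

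Keap1 (chromosome 9, 21034173 to 21043776), whose product is the adaptor that presents NRF2 to a ubiquitin ligase, moved little. Its RPKM was 21.5, 24.2 and 20.8 in room air and 25.9, 24.9 and 26.1 under oxygen on 60% fat. On 10% fat it was 21.7, 22.7 and 23.5 in room air and 24.5, 24.7 and 23.3 under oxygen, where the ranges overlap by 1 library on each side. The change was 0.21 ± 0.07 on 60% fat (limma, adjusted p = 0.0257) and 0.10 ± 0.07 on 10% fat (adjusted p = 0.281; 95% interval -0.06 to 0.25). The call on 60% fat was lost in 5 of 22 alternative analyses. It was lost with the 6 libraries of the comparison alone (adjusted p = 0.0732), without replicate 1 or 3 of the 60% fat oxygen group (0.0607 and 0.0754), and without replicate 1 or 3 of the 60% fat air group (0.0706 and 0.106). GENCODE M21 lists an antisense gene, Gm16754, over Keap1, and whether the counting used strand is not given in these sources, so reads of the 2 cannot be told apart.

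The ratio of Nfe2l2 to Keap1 RNA within a library, which no scaling of the library changes, was 5.36, 6.07 and 5.72 in room air and 3.20, 3.94 and 3.12 under oxygen on 60% fat. On 10% fat it was 6.35, 6.08 and 6.52 in room air and 2.99, 3.38 and 2.96 under oxygen. Every oxygen library lay below every library in room air. The mean log2 ratio differed by -0.89 between oxygen and room air (exact permutation test within diets, two-sided, p = 0.005, the smallest its 400 arrangements allow; 0.0133 after adjustment over 8 ratio tests). Averaged over the exposures, it differed between diets by -0.01 (exact permutation p = 0.93, adjusted 0.98). That average joins opposite differences: 60% minus 10% fat was -0.15 in room air, lower in 3 of 3 pairs of equal number, and 0.13 under oxygen, higher in 3 of 3 pairs. The groups did not overlap in room air and overlapped under oxygen. In room air, replicate 2 was almost equal between diets, at 6.07 on 60% fat and 6.08 on 10% fat. The count of pairs and the lack of overlap there both rest on that small step. The difference between exposures was not tested for this ratio.

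In the thioredoxin system, Srxn1 (chromosome 2, 151931259 to 151937112) had the largest rise of the 8 genes in both diets. On 60% fat its RPKM was 11.6, 13.4 and 11.1 in room air and 135, 173 and 119 under oxygen. For 10% fat the values were 11.8, 14.1 and 17.7 in room air and 105, 129 and 109 under oxygen. The lowest oxygen library was far above the highest one in room air. The means were 12.0 ± 1.21 and 14.5 ± 2.99 RPKM in room air, and 142 ± 27.7 and 114 ± 12.5 under oxygen (SD, n = 3). The rise was 11.3-fold on 60% fat (log2 change 3.50 ± 0.16; limma, adjusted p = 9.75e-09) and 7.71-fold on 10% fat (2.95 ± 0.16; adjusted p = 5.74e-08).

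Txnrd1 (chromosome 10, 82296695 to 82360469), the cytosolic thioredoxin reductase, had RPKM of 31.5, 35.4 and 30.0 in room air and 198, 235 and 214 under oxygen on 60% fat. On 10% fat the values were 36.4, 37.9 and 46.8 in room air and 192, 197 and 219 under oxygen. It thus passed from a middle position among the 8 genes to a level like that of its substrate Txn1. The rise was 6.59-fold on 60% fat (2.72 ± 0.11; limma, adjusted p = 4.57e-09) and 4.99-fold on 10% fat (2.32 ± 0.11; adjusted p = 1.86e-08). The small gene Eid3 lies inside the span of Txnrd1 on the same strand, and Gm38560 and Gm47073 overlap Txnrd1 on the opposite strand (GENCODE M21). Eid3 ranged from 0.118 to 0.418 RPKM in room air and from 2.45 to 3.52 under oxygen, and its reads cannot be told apart from those of an overlapping part of Txnrd1.

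Txn1 (chromosome 4, 57956244 to 57969283), thioredoxin itself, was the most abundant of the 8 genes by mean level in each of the 4 groups and changed little. On 60% fat its RPKM was 154, 189 and 186 in room air and 209, 223 and 217 under oxygen. On 10% fat it was 143, 168 and 202 in room air and 213, 189 and 216 under oxygen, where the groups overlap. The change was 0.30 ± 0.12 on 60% fat (limma, adjusted p = 0.0431) and 0.28 ± 0.12 on 10% fat (adjusted p = 0.0613; 95% interval 0.02 to 0.54). The call on 60% fat was lost in 11 of 22 alternatives: with quantile normalization (0.12, adjusted p = 0.331), with no filter on low values (adjusted p = 0.0876), with no variance trend (0.0545) and on leaving out any of 8 libraries: replicates 1, 2 and 3 of the 60% fat oxygen group (0.0634, 0.110 and 0.0900), 1 and 3 of the 10% fat oxygen group (0.0550 and 0.0521), 1 and 3 of the 60% fat air group (0.170 and 0.0504) and 2 of the 10% fat air group (0.0531). On 10% fat the change shrank to 0.073 with quantile normalization (adjusted p = 0.567) and to 0.16 without replicate 1 of the 10% fat air group (adjusted p = 0.252). A call appeared there in 4 of 22: with median-ratio scaling (adjusted p = 0.0396), with the replicate number as a block (0.0372), and without replicate 1 of the 60% fat air group (0.0467) or replicate 3 of the 10% fat air group (0.00838). GENCODE M21 lists a processed pseudogene, Txn-ps1, and how the authors' counting shared reads with it is not known.

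The ratio of Txnrd1 to Txn1 within a library was 0.204, 0.187 and 0.162 in room air and 0.946, 1.05 and 0.987 under oxygen on 60% fat. For 10% fat the ratio was 0.255, 0.225 and 0.232 in room air and 0.901, 1.05 and 1.01 under oxygen. Reductase RNA was thus a fraction of thioredoxin RNA in room air and close to equal to it under oxygen. The mean log2 ratio rose by 2.25 (exact permutation test within diets, p = 0.005, adjusted 0.0133). The ratio to Txnrd2, which encodes the mitochondrial reductase, ran from 4.84 to 8.80 in room air and from 28.1 to 43.4 under oxygen. That log2 difference was 2.53 (exact permutation p = 0.005, adjusted 0.0133), and the libraries of the 2 exposures did not overlap. The ratio of Txn1 to Txn2, the mitochondrial thioredoxin, ran from 2.43 to 3.19 in room air and from 2.37 to 3.04 under oxygen, a log2 difference of -0.12 (exact permutation p = 0.17, adjusted 0.272). No diet difference of these ratios, averaged over the exposures, passed: Txnrd1 to Txn1 differed by -0.18 (p = 0.08, adjusted 0.16), Txnrd1 to Txnrd2 by -0.20 (p = 0.21, adjusted 0.28) and Txn1 to Txn2 by 0.00 (p = 0.98), all by exact permutation. For Txnrd1 to Txn1 the difference was -0.37 in room air, where the diets did not overlap and 3 of 3 pairs were lower on 60% fat, and 0.01 under oxygen. Txnrd1 to Txnrd2 differed by -0.30 in room air and -0.10 under oxygen, and Txn1 to Txn2 by 0.07 and -0.07. In room air Txn1 to Txn2 was higher on 60% fat in 3 of 3 pairs, although the diets overlapped. These differences within an exposure were not tested.

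**Figure D2:**
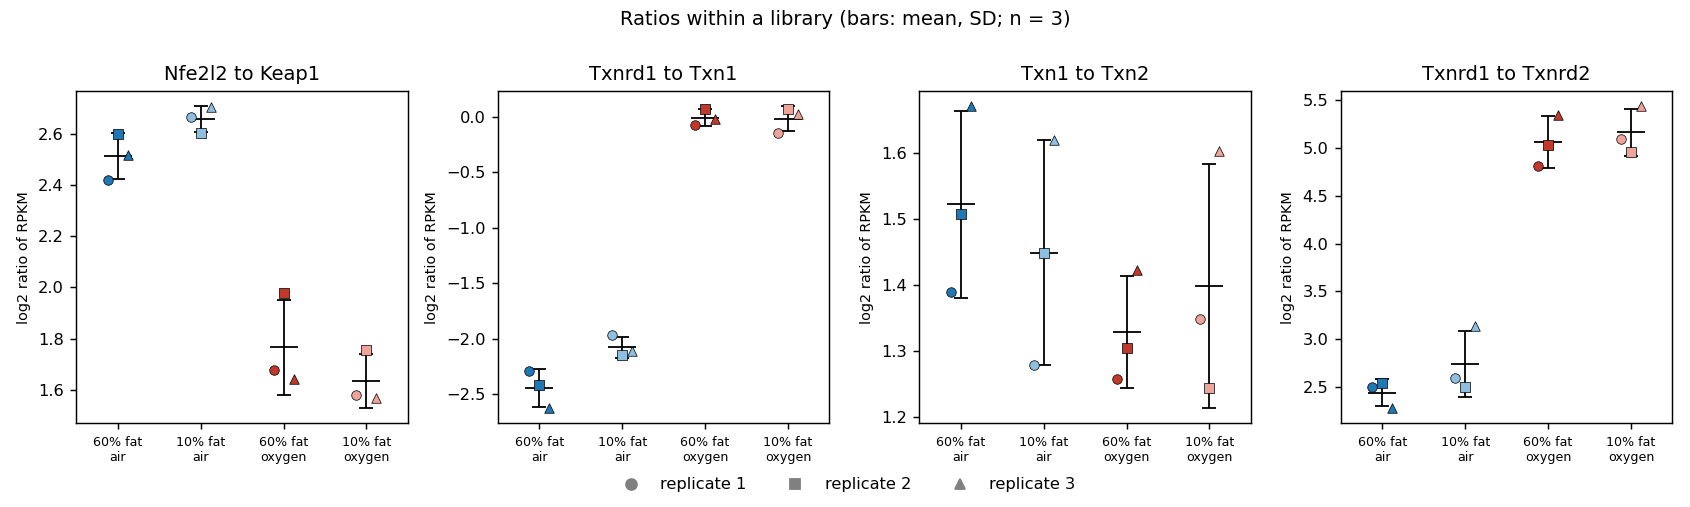
Log2 ratio of the RPKM values of a pair of genes within each library (points), with the mean and SD of each group of 3 (bars). Txnrd1 to Txn1 and Txnrd1 to Txnrd2 are higher under oxygen in every library, Nfe2l2 to Keap1 is lower, and Txn1 to Txn2 overlaps between exposures.

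Nqo1 (chromosome 8, 109912124 to 109927105) encodes the quinone reductase often read as a marker of NRF2 activity. It was the least abundant of the 8 genes in room air, with 5.22, 5.40 and 4.79 RPKM on 60% fat and 5.04, 5.40 and 3.96 on 10% fat. Under oxygen it reached 33.1, 36.5 and 29.8 on 60% fat and 32.4, 31.2 and 33.3 on 10% fat. The oxygen libraries of both diets fell in one narrow range. The rise was 5.95-fold on 60% fat (2.57 ± 0.11; limma, adjusted p = 7.43e-09) and 6.23-fold on 10% fat (2.64 ± 0.11; adjusted p = 1.00e-08).

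Osgin1 (chromosome 8, 121961061 to 121970156), a growth inhibitor induced by oxidative stress, varied most between libraries of one group. Its RPKM was 16.2, 22.7 and 15.0 in room air and 69.0, 127 and 110 under oxygen on 60% fat. On 10% fat it was 18.2, 22.1 and 30.6 in room air and 84.5, 107 and 120 under oxygen. The exposures stayed apart in spite of this spread. The rise was 5.47-fold (2.45 ± 0.24; limma, adjusted p = 3.59e-06) and 4.37-fold (2.13 ± 0.24; adjusted p = 1.35e-05) for 60% and 10% fat.

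Ephx1 (chromosome 1, 182919686 to 182947626) encodes microsomal epoxide hydrolase, which opens reactive epoxides to diols. On 60% fat its RPKM was 128, 129 and 123 in room air and 202, 188 and 171 under oxygen. For 10% fat the values were 116, 112 and 103 in room air and 196, 194 and 167 under oxygen. The oxygen libraries lay above all those in room air by a modest step. The change was 0.55 ± 0.09 on 60% fat (limma, adjusted p = 0.000128) and 0.74 ± 0.09 on 10% fat (adjusted p = 1.49e-05). GENCODE M21 lists an unprocessed pseudogene, Gm36961, over Ephx1 on the same strand, and how the authors' counting treated its reads is not known.

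**Figure D3:**
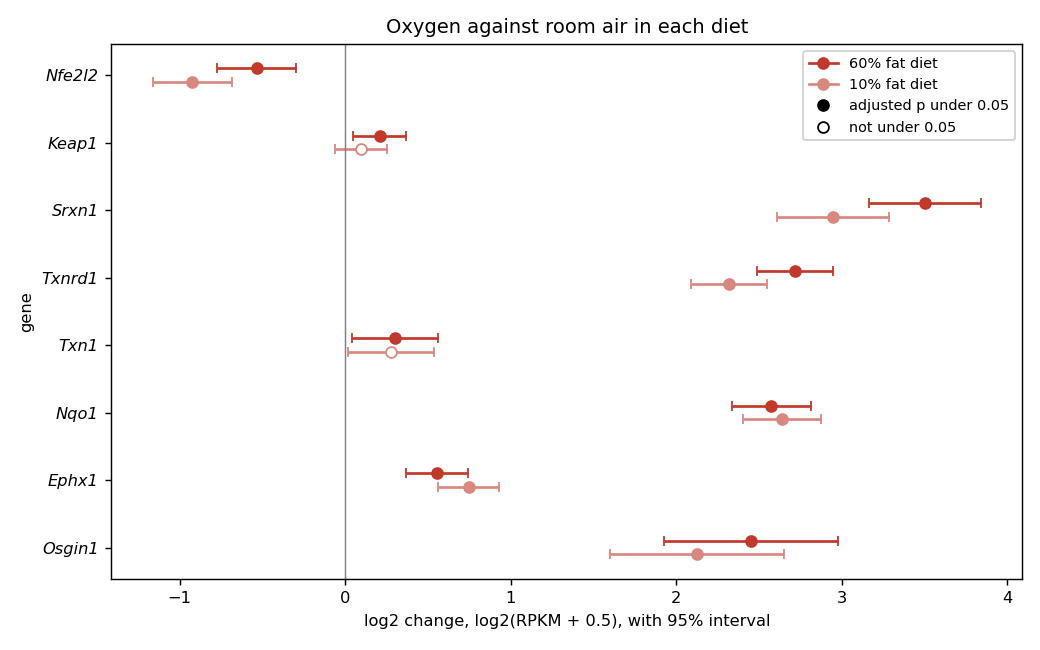
Log2 change in oxygen minus room air of the 8 genes (points, filled where the adjusted p is under 0.05) with 95% intervals (bars), for the 60% and the 10% fat diet. Srxn1, Txnrd1, Nqo1 and Osgin1 lie above 2, Nfe2l2 lies below 0, and the interval of Keap1 on 10% fat spans 0.

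The order of the levels differed between exposures. In room air the means ran, from high to low, Txn1, Nfe2l2, Ephx1, Txnrd1 and then Keap1, Osgin1, Srxn1 and Nqo1, with Osgin1 before Keap1 on 10% fat. Neighbours whose libraries overlapped in room air were Nfe2l2 and Ephx1 on 60% fat, Txn1 and Nfe2l2 on 10% fat, and Keap1 and Osgin1 on both. Under oxygen the order was Txn1, Txnrd1, Ephx1, Srxn1, Osgin1, Nfe2l2, Nqo1 and Keap1 in both diets. There Txn1 and Txnrd1 overlapped in both diets, as did Txnrd1 and Ephx1, and Srxn1 and Osgin1. Ephx1 and Srxn1 overlapped on 60% fat, as did Osgin1 and Nfe2l2. The mean level of the genes over all libraries lay between the 65.4 percentile (Nqo1) and the 97.1 percentile (Txn1) of the genes tested, so that none was near the filter on low values.

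The second question was what the diet changed. In room air no member was called between 60% and 10% fat by limma, where 0.150% of all genes were called. At an unadjusted p under 0.05 there were 2 of 8, Txnrd1 and Ephx1, against 12.2% of all genes. In room air Txnrd1 was 32.3 ± 2.79 RPKM on 60% fat and 40.4 ± 5.62 on 10% fat (SD, n = 3), a log2 difference of -0.31 ± 0.11 (95% interval -0.54 to -0.08; limma, adjusted p = 0.256). Ephx1 was 127 ± 3.19 on 60% fat and 110 ± 6.66 on 10% fat, a difference of 0.20 ± 0.09 (0.02 to 0.39; adjusted p = 0.371). Both differences went one way in 3 of 3 pairs of libraries with the same number. Srxn1 did so too, lower on 60% fat in each pair. With 3 pairs such agreement is weak evidence, and no share over all genes is given for it. In the 60% fat air group, replicate 2 had the highest value of all 8 genes and also the highest summed RPKM of the 12 libraries. Without it the difference was -0.38 for Txnrd1 (adjusted p = 0.117) and 0.19 for Ephx1 (adjusted p = 0.378), still with no member called, and the calls over all genes went from 20 to 353. Without replicate 3 of the 10% fat air group the difference of Txnrd1 shrank to -0.20 (adjusted p = 0.637). With the replicate number as a block, Txnrd1 and Ephx1 were again the 2 of 8 with an unadjusted p under 0.05, against 22.0% of all genes.

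Under oxygen no member was called between diets, where 0.00751% of all genes were called, and 0 of 8 had an unadjusted p under 0.05, against 8.08% of all genes. The largest differences were those of Srxn1, 0.30 ± 0.16 (95% interval -0.04 to 0.64; limma, adjusted p = 0.679), and Nfe2l2, 0.22 ± 0.11 (-0.02 to 0.46; adjusted p = 0.670). Each was higher on 60% fat in 3 of 3 pairs of equal number, and so was Keap1. Without replicate 2 of the 60% fat oxygen group the difference shrank to 0.15 for Srxn1 and 0.13 for Nfe2l2. Over all alternatives it ran up to 0.42 for Srxn1 and 0.29 for Nfe2l2. With the replicate number as a block, these 2 of 8 had an unadjusted p under 0.05 (limma, 0.0315 and 0.0271), against 15.7% of all genes, and neither passed adjustment (0.265 and 0.247). For Nqo1 the interval of the diet difference under oxygen was -0.21 to 0.27, and for Ephx1 it was -0.17 to 0.20.

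**Figure D4:**
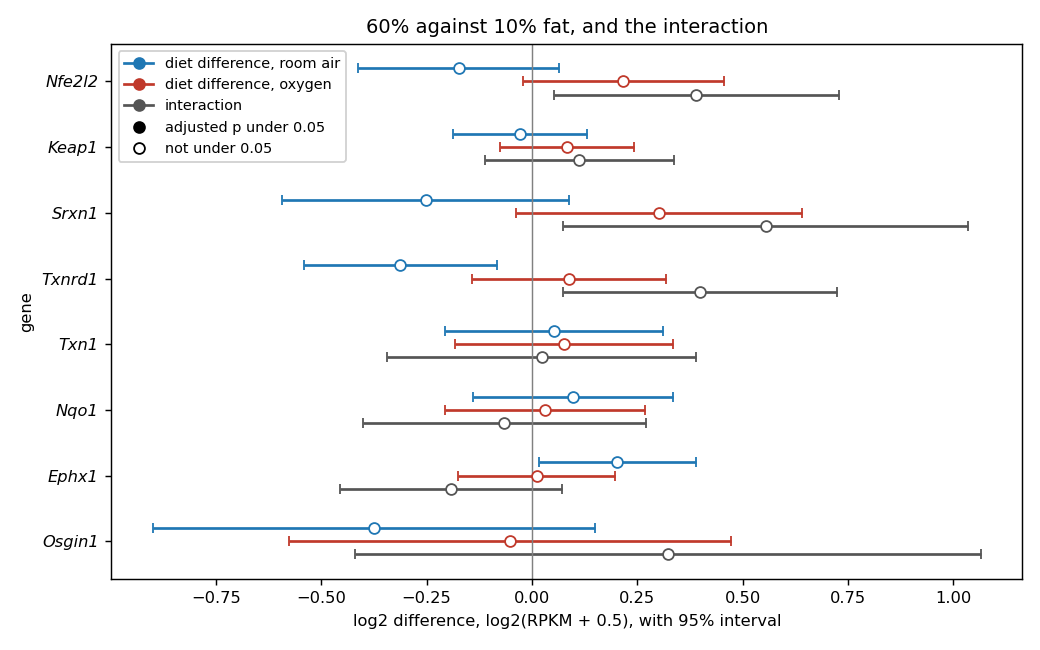
Log2 difference of 60% minus 10% fat for the 8 genes (points, filled where the adjusted p is under 0.05) with 95% intervals (bars), in room air and under oxygen. The interaction, the oxygen change on 60% fat minus that on 10% fat, is drawn beside them. Txnrd1 in room air lies below 0 and Ephx1 in room air above 0 with intervals that leave out 0, and neither passed adjustment over all genes. The interaction intervals of Nfe2l2, Txnrd1 and Srxn1 also leave out 0, and none of these passed adjustment.

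Whether the oxygen change differed between diets was tested as an interaction, the change on 60% fat minus that on 10% fat. It called 0 of the 8 genes, against 0.0375% of all genes, and 3 of 8 had an unadjusted p under 0.05, against 10.3%. These were Nfe2l2 (0.39 ± 0.16; limma, adjusted p = 0.424), Txnrd1 (0.40 ± 0.15; adjusted p = 0.399) and Srxn1 (0.56 ± 0.22; adjusted p = 0.424). In the 10% fat air group, replicate 3 had the highest value of Nfe2l2, Txnrd1 and Srxn1. Without it the interaction was 0.34 for Nfe2l2, 0.29 for Txnrd1 and 0.41 for Srxn1. Without replicate 2 of the 60% fat air group the interaction was larger: 0.50 for Nfe2l2, 0.47 for Txnrd1 and 0.63 for Srxn1. No member was called in either case. Libraries with the same number deviated together within an exposure. The number was therefore added as a block to a further fit of each exposure, a choice made on these same data. The block called no member in room air, under oxygen or for the interaction either. In all genes it raised the calls from 20 to 466 in room air, from 1 to 102 under oxygen and from 5 to 243 for the interaction. For the interaction, 4 of 8 had a blocked unadjusted p under 0.05 (Nfe2l2, Txnrd1, Srxn1 and Ephx1), against 19.2% of all genes. The lowest blocked adjusted p of a member was 0.0692, for Ephx1 between diets in room air, and for the interaction 0.127, for Nfe2l2.

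Genes around the 8 were followed in 4 further lists that leave them out. All 4 were chosen with earlier results of these data known, so their counts are no independent test. Most other NRF2 targets rose under oxygen. On 60% fat 25 of 36 were higher and 6 lower (69.4% and 16.7%, against 26.3% and 36.5% of all genes). On 10% fat 25 were higher and 3 lower (69.4% and 8.33%, against 25.3% and 34.2%). The medians were 0.91 and 0.78, beside -0.09 and -0.08 for all genes. Akr1b8, an aldo-keto reductase, rose by 3.42 and 3.35 on the log2 scale for 60% and 10% fat. Gclc and Gclm, the catalytic and modifier subunits of glutamate-cysteine ligase, which makes the precursor of glutathione, rose by 3.44 and 2.33 on 60% fat and by 2.53 and 2.10 on 10% fat. Cbr3, a carbonyl reductase, rose by 2.35 and 2.39. Aldh3a1 and G6pdx did not pass, with -0.04 and 0.00 on 60% fat.

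Among 22 regulators and partners of NRF2, 9 were higher and 3 lower on 60% fat (40.9% and 13.6%, against 26.3% and 36.5% of all genes). On 10% fat 9 were higher and 2 lower (40.9% and 9.09%, against 25.3% and 34.2%). The medians were 0.19 and 0.21. Sqstm1, whose product binds KEAP1 and draws it into autophagy, rose by 1.48 and 1.46. Of the small MAF partners, Mafk rose by 1.29 and 1.13 and Maff by 2.25 and 1.39. Cdkn1a, a cell cycle inhibitor whose product can bind NRF2, rose by 2.28 on both diets. Rbx1, a subunit of the KEAP1 ubiquitin ligase, and Nfe2l3 did not pass, with -0.05 and 0.11 on 60% fat.

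Of 20 other genes of the thioredoxin system, 6 were higher and 6 lower on 60% fat, and 4 higher and 5 lower on 10% fat (medians 0.08 and 0.09). These shares, 30.0% and 30.0%, then 20.0% and 25.0%, lie near those of all genes. With median-ratio scaling the split was 8 against 3 and 7 against 3, and with quantile normalization 4 against 6 and 3 against 4. Txnl1, a thioredoxin-like protein, rose by 0.72 and 0.49, and Txn2 by 0.49 and 0.33. Prdx2, a cytosolic peroxiredoxin, fell by 0.81 and 0.69, and Rrm2b, a ribonucleotide reductase subunit, fell by 0.63 and 0.59. Txnrd3 did not pass on 60% fat (-0.04) and rose by 0.35 on 10% fat, and Glrx2 did not pass on either (-0.02 and -0.21). Txnrd2 did not pass on either diet (0.10 and -0.08). Txnip, whose product binds and inhibits thioredoxin, fell by 0.69 on 60% fat (limma, adjusted p = 0.000891) and had a change of 0.01 on 10% fat (adjusted p = 0.951); the test of the difference between diets did not pass (-0.70 ± 0.20, adjusted p = 0.258).

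Of 7 further genes listed as quinone reductases, epoxide hydrolases and related reductases, 0 were higher in either diet, while 4 were lower on 60% fat and 3 on 10% fat (57.1% and 42.9%; medians -0.29 and -0.12). The list is small and incomplete: it holds the carbonyl reductase Cbr1 but not Cbr3, which stands among the NRF2 targets and rose in both diets. With quantile normalization 5 and 3 were lower, and with median-ratio scaling 3 and 3. Nqo2, a paralog of Nqo1, fell by 1.05 and 0.92, and Ephx2, the soluble epoxide hydrolase, fell by 1.27 and 1.01. Por, the reductase of microsomal cytochrome P450, fell by 0.39 on 60% fat and did not pass on 10% fat (-0.12). Cbr1 fell by 0.29 on 60% fat and had 0.00 on 10% fat, where it did not pass. Ephx4 did not pass on 60% fat (-0.22) and fell by 0.46 on 10% fat, and Cryz did not pass on either (-0.06 and 0.07). Of the 82 genes tested in these 4 lists, limma called 0 between diets in room air, 0 under oxygen and 0 for the interaction, where 14, 6 and 9 had an unadjusted p under 0.05. The first is 17.1% of the genes and the second 7.32%; the shares under oxygen and for the interaction lie at about those of all genes. Sqstm1, Prdx1 and Cbr1 stand in 2 of the lists.

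**Figure D5:**
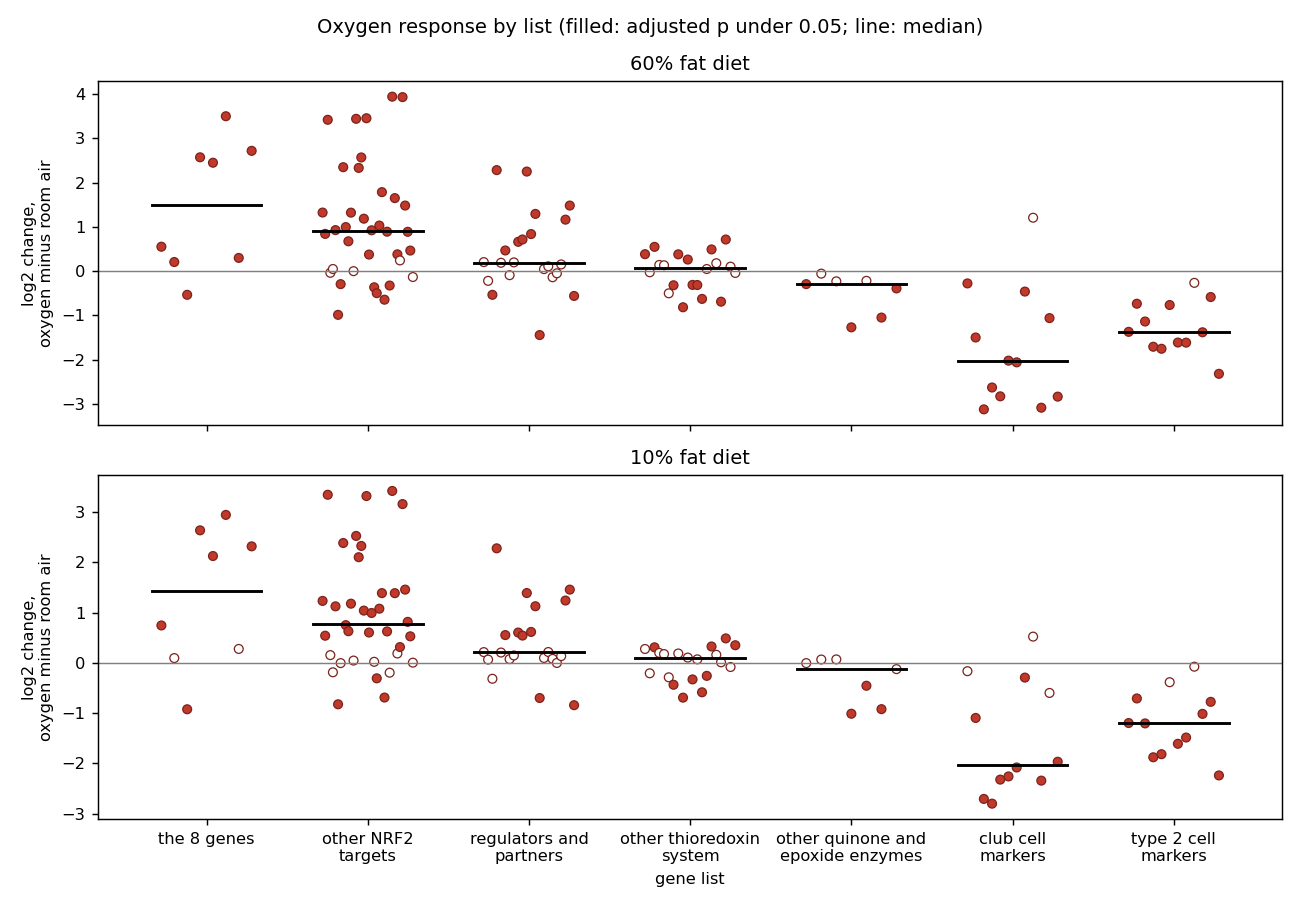
Log2 change in oxygen minus room air of each tested gene (points, filled where the adjusted p is under 0.05) by diet, for the 8 genes, the 4 lists of further NRF2 and thioredoxin genes, and the club and type 2 cell markers, with the median of each (lines). Most other NRF2 targets lie above 0, the list of other quinone and epoxide enzymes, which leaves out the rising Cbr3, has no filled point above 0, and most club and type 2 markers lie below 0.

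Markers of lung cell types were compared beside these results. The labelled tissue holds its markers: Sftpc of alveolar type 2 cells, Ager of alveolar type 1 cells, Scgb1a1 of club cells and Cldn5 of endothelium were the most abundant genes of their lists, and no marker was at 0 in all libraries. Under oxygen, 11 of 12 club cell markers were lower on 60% fat and 9 on 10% fat, and their summed RPKM ran from 111617 to 192997 in room air and from 17756 to 29704 under oxygen. Of 12 type 2 markers, 11 and 10 were lower, with sums of 30589 to 44018 in room air and 12571 to 19997 under oxygen. Of 10 type 1 markers, 2 were higher and 5 lower on 60% fat, and 1 and 4 on 10% fat. Of 9 ciliated cell markers, 7 were lower in both diets and 1 was higher on 60% fat.

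Of 12 endothelial markers, 1 was higher and 7 lower on 60% fat, and 4 were lower on 10% fat. Of 10 fibroblast markers, led by Inmt, 1 and 2 were higher and 4 and 3 lower, and with quantile normalization 6 and 5 were lower. Of 11 macrophage markers, led by Chi3l3, 2 were higher on 60% fat and 3 lower in both diets. Of 10 neutrophil markers, led by S100a9, 2 were lower in both diets and none was higher. Their median log2 changes were -1.63 on 60% fat and -1.64 on 10% fat, beside -0.09 and -0.08 for all genes. Few calls in that list thus do not mean small changes. Of 10 T and NK cell markers, 9 and 7 were lower, and of 8 B cell markers, 3 and 1 were lower and 2 higher on 10% fat. All 10 cardiac muscle markers, led by Myl7, were lower in both diets. Of all genes, 26.3% and 25.3% were called higher and 36.5% and 34.2% lower. The shares for the fibroblast, macrophage and neutrophil lists stay below these or exceed them by a few points. The same holds for the B cell list, with 37.5% lower on 60% fat, and 25.0% higher and 12.5% lower on 10% fat. On 10% fat it also holds for the endothelial list (33.3% lower) and the type 1 list (40.0% lower). With 8 to 12 genes per list, such shares are coarse. The part of these markers in the changes of the 8 genes was not tested.

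The genes whose profile over the 12 libraries was most like that of a member were found by the distance between log2 values centred on their own means, and say nothing of shared control. For Nfe2l2 they were Mgme1 (0.26), Upp1 (0.29) and Pknox1 (0.34). For Srxn1 they were Fosl1 (0.67), Mthfd2 (0.72) and the NRF2 target Gclc (0.74). For Txnrd1 they were Rin1 (0.48), Pla1a (0.51) and Serpina3n (0.53), and for Nqo1 Psat1 (0.63), S100a14 (0.67) and Rin1 (0.74). For Osgin1 they were Ptgs2 (0.69), Asns (0.76) and Pla1a (0.80). Keap1 was nearest to Abcf2, Ap2m1 and Ndufa9, and Txn1 to Sdhd, Neu1 and Glrx. Among the 8 genes themselves the nearest pair was Keap1 and Txn1 (0.49), then Txnrd1 and Osgin1 (0.80) and Nqo1 and Txnrd1 (0.81). The nearest genes named here mostly lay outside the NRF2 lists.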

How the data were processed

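The deposited table holds RPKM per gene for 12 libraries, made by the authors, with a status for each value and no read counts. The submitters' processing notes name bcl2fastq 2.19, TopHat2 2.0.11 and the builds mm8 and mm9. The program behind the RPKM is not given in these sources. A count test was not run. All columns of per-library values were matched to a sample by its label.

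From these values, 208 genes with too little data were left out and 85 failed estimates in 26 genes were treated as missing; none belonged to a member. Tested were 13324 genes with RPKM of at least 1 in 3 or more libraries and with 2 or more usable values per group. Group means of log2(RPKM + 0.5) over the 12 libraries were fitted with limma 3.58.1 (R 4.3.3), using trended moderation of the variances; p-values are two-sided and were adjusted by Benjamini-Hochberg over the tested genes, with calls at 0.05. This scale understates changes of low genes. The model was tested on simulated data. Within-library ratios were compared by exact permutation tests with Python 3.11.15 and scipy 1.17.1 (numpy 2.4.6, pandas 2.3.3, matplotlib 3.10.9), and 95% intervals come from the fit. The rough depth used an offset of 250 bases, chosen on these data, and transcripts of at least 1000 bases.

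Members and gene lists were chosen with earlier results of these data known. Named from each pathway list were the 4 genes with the smallest and the 2 with the largest p for oxygen on 60% fat, and Txn2, Txnrd2 and Txnip; from each marker list the most abundant gene; and for each member the 3 nearest genes, which for Ephx1 are not reported here. The replicate number is the digit in the sample title. Deviations from group means correlated at 0.293 to 0.486 for the 6 pairs with the same number in one exposure, -0.131 to 0.220 for the 12 with the same number in different exposures, and -0.304 to 0.0102 for the 12 with other numbers in one exposure. The number was thus taken to pair the diets within an exposure. Deviations from a group mean sum to 0 within each group. High values for equal numbers therefore force low ones for other numbers in that exposure, which are no separate evidence. The block was chosen on the same data to which it was then applied. Alternatives were another pseudocount (0.1 or 1), no filter or a mean RPKM of at least 5, quantile normalization or median-ratio scaling, robust or untrended moderation, the libraries of a comparison alone, the replicate block, and each library left out.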

Additional observations from a re-analysis of the deposited data

Results flagged for a closer look

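The log2 ratio of Nfe2l2 to Keap1 RNA was lower on 60% fat than on 10% fat in all 3 pairs of equal number in room air and higher in all 3 under oxygen. The diet difference was -0.15 in room air and 0.13 under oxygen, 0.28 apart. In room air the pair of replicate 2 was almost a tie, with log2 ratios of 2.602 on 60% fat and 2.605 on 10% fat. The opposite direction of the pairs in each exposure drew attention to it, and the difference between exposures was not tested.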

How the results depend on the processing

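Over the alternatives, 6 to 8 members were called with oxygen on 60% fat and 6 to 7 on 10% fat, and none in the diet comparisons or the interaction. Nfe2l2, Nqo1, Txnrd1, Srxn1, Osgin1 and Ephx1 kept their direction and call in both oxygen comparisons under all 22 alternatives, while the calls of Keap1 and Txn1 depended on the settings given with their values. With the replicate number as a block, 8 and 7 members were called with oxygen on 60% and 10% fat, the added one being Txn1, and 0 in each diet comparison and the interaction; the block changed no other call of a member. For the ratios, sign flips over the 6 pairs of equal number gave exact permutation p = 0.906, 0.188, 1 and 0.188 between diets for Nfe2l2 to Keap1, Txnrd1 to Txn1, Txn1 to Txn2 and Txnrd1 to Txnrd2. Values near 0 changed sign. Ephx1 between diets under oxygen was -0.011 with median-ratio scaling. With 1 library left out, the log2 difference between diets in room air ran from -0.092 to 0.015 for Keap1, from -0.022 to 0.18 for Nqo1 and from -0.069 to 0.18 for Txn1. Under oxygen it ran from -0.039 to 0.10 for Nqo1, from -0.23 to 0.21 for Osgin1 and from -0.0645 to 0.074 for Ephx1. The interaction ran from -0.15 to 0.054 for Nqo1 and from -0.10 to 0.14 for Txn1, and the diet difference of a log2 ratio from -0.06 to 0.025 for Nfe2l2 to Keap1 and from -0.041 to 0.053 for Txn1 to Txn2. The causes of these shifts were not tested. Read counts per gene are not at hand, so the part of read number was not tested. The intervals of the diet differences, from 3 libraries per group, show which sizes of difference the data do not exclude. Over all genes, the calls between diets in room air moved from 20 to between 1 (the libraries of the comparison alone) and 66 (quantile normalization) under other settings without a block, under oxygen from 1 to between 0 and 4, and for the interaction from 5 to between 4 and 6; leaving out 1 library gave 2 to 353, 0 to 3 and 0 to 45, and the block 466, 102 and 243.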
